A study of Thermothelomyces thermophilus with 18 samples.

Results

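The comparison set the strain lacking MtTRC-1 (ΔMttrc-1) against the wild type (MtWT) of the thermophilic fungus Myceliophthora thermophila after 6 h on Avicel, a microcrystalline cellulose. It rests on 6 of the 18 RNA-seq libraries of the series, 3 of ΔMttrc-1 and 3 of MtWT, chosen by the strain, carbon source and time in their labels. ΔMttrc-1 carries a CRISPR/Cas9 deletion of Mycth_90344, the gene of the Cys2His2 zinc finger protein MtTRC-1, marked with neo, and the complemented and overexpressing strains were not analysed here. Both strains were pregrown at 45 °C on 2% glucose in Vogel's salt for 16 h, and the washed mycelium was moved to 2% Avicel. The other 12 libraries, 3 of each strain after 4 h on Avicel and 3 of each after 4 h on starch, shared the glucose pregrowth. A deletion effect below is the difference between these 2 strains, each described by the study as 3 independent biological replicates.

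Filamentous fungi degrade cellulose outside the cell. Cellobiohydrolases release cellobiose from chain ends, endoglucanases cut within the chains, lytic polysaccharide monooxygenases (LPMOs) cleave crystalline cellulose by oxidation, cellobiose dehydrogenase can supply electrons to LPMOs, and beta-glucosidases split cellobiose into glucose. The genes for these enzymes are induced by cellulose breakdown products and repressed by glucose, through DNA-binding regulators. The secreted proteins fold in the endoplasmic reticulum (ER), where the unfolded protein response (UPR) adjusts the supply of chaperones and translocation channels.

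The 6 libraries held between 17250057 and 23155923 gene counts. Levels are given as CPM, a gene's counts rescaled to a common library size, after TMM scaling, which sets the bulk of genes equal between libraries, and they compare a gene between strains, not genes of different length. The TMM factors were 1.22 to 1.23 in ΔMttrc-1 and 0.947 to 0.96 in MtWT, and the 100 most abundant genes of each library took 22% to 22.2% of its counts in ΔMttrc-1 but 27.5% to 28% in MtWT. Scaling by library totals instead moved the all-gene median of log2 fold changes from 0.01 to 0.36, so each fold change below is relative to that median. Actin (Mycth_2314852) was at 1695, 1778 and 1685 CPM in MtWT and 1536, 1539 and 1547 in ΔMttrc-1, a log2 fold change of -0.16 that became 0.20 under library totals. Elongation factor tef-1 (Mycth_2298136) was at 3683 ± 34.6 CPM (SD, n = 3) in MtWT and 4035 ± 49.1 in ΔMttrc-1. The row of Mycth_90344 itself was not analysed here, so the strain labels could not be checked against the deleted gene.

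Of 8573 genes tested, 1843 (21.5%) were called, meaning an edgeR quasi-likelihood adjusted p below 0.05 with a change of more than 2-fold. In ΔMttrc-1, 1110 genes (12.9%) fell and 733 (8.55%) rose, and these shares are the background for the counts of each list below. The lists were formed from genes named in the study's text and from its descriptions, at hand for part of the genes (1666 descriptions). Each list may therefore leave out members of its family. Scaled by library totals 704 genes fell and 1544 rose, with all 704 among the 1110 and all 733 among the 1544. In bulk RNA such as this, fewer cells of a kind and less RNA per cell cannot be told apart. The decreases were the deeper changes: 372 fell and 116 rose by more than 2 on the log2 scale, and 72 fell and 1 rose by more than 4. They also reached further into the abundant transcripts. The genes that fell held 27.1% to 27.3% of all counts in the MtWT libraries and 10.6% to 10.7% in the ΔMttrc-1 libraries. The genes that rose held 1.8% to 1.89% in MtWT and 6.38% to 6.42% in ΔMttrc-1. Of the 188 genes above 1000 CPM in MtWT, 76 fell, and 4 of the 91 genes above 1000 CPM in ΔMttrc-1 had risen. Replicates were tight, with a median coefficient of variation of 5.91% in MtWT and 4.0% in ΔMttrc-1. The libraries of the strains did not overlap for 79.6% of all tested genes, so a lack of overlap alone marks no gene.

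**Figure D1:**
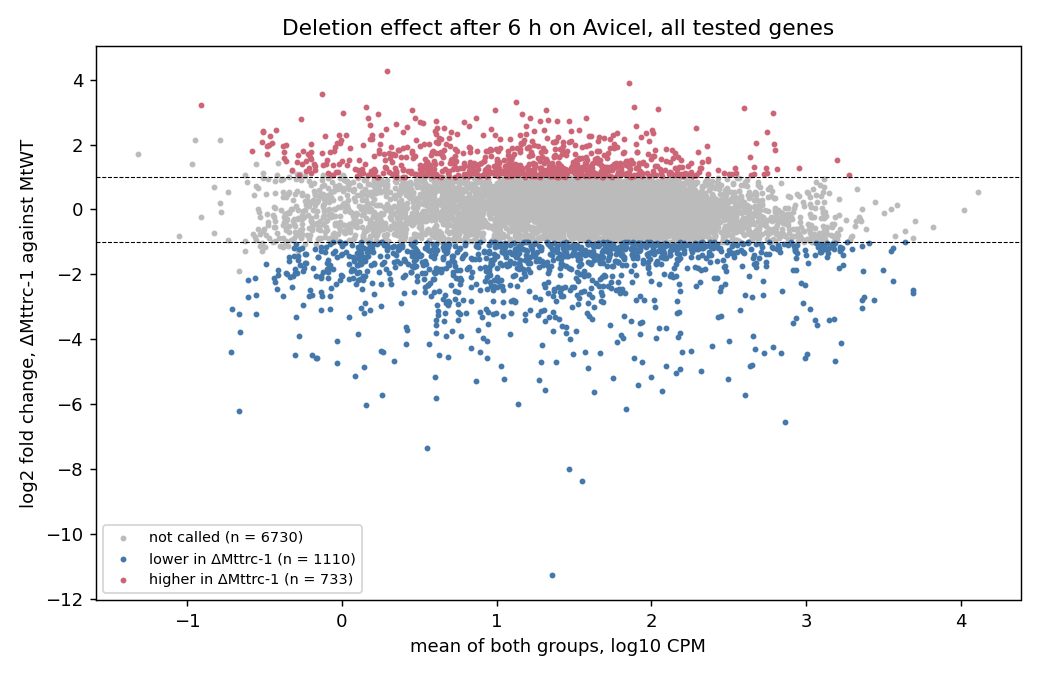
Each point is one of the 8573 tested genes, with the mean of both strains in log10 CPM on the horizontal axis and the log2 fold change of ΔMttrc-1 against MtWT after 6 h on Avicel on the vertical axis. Blue points are the 1110 genes that fell, red points the 733 that rose, and the dashed lines mark a 2-fold change; the decreases reach below -8 while a single increase passes 4.

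Transcripts of the cellulases were lower in ΔMttrc-1, and 7 of the 8 listed genes fell while none rose, against 12.9% of all tested genes that fell. The median log2 fold change of the list was -1.96, against 0.01 for all genes, and the summed level went from 22131 ± 327 CPM (SD, n = 3) in MtWT to 5011 ± 59.5 in ΔMttrc-1. The study picked its cellulase and UPR genes from these same libraries and others of the series. It did so too for members of the LPMO, cellobiose dehydrogenase, beta-glucosidase and starch lists. The direction of all these lists is therefore no independent evidence. Exoglucanase 1 (cbh-1, Mycth_109566), a cellobiohydrolase and the gene that lost the most CPM, was at 8568, 8370.2 and 8396 CPM in the MtWT libraries and 1380.2, 1434 and 1432 in the ΔMttrc-1 libraries. No library of one strain came near those of the other, and the decrease was 5.97-fold (log2 fold change -2.58, SE 0.051, edgeR adjusted p = 8.4e-24). Exoglucanase 2 (cbh-2, Mycth_66729) had 6062, 6129.7 and 5894 CPM in MtWT and 1281, 1324 and 1298 in ΔMttrc-1, 4.63-fold lower. Endoglucanase 3 (gh5-1, Mycth_86753) went from 4863, 5092 and 4783 CPM in MtWT to 1348, 1349 and 1371 in ΔMttrc-1, 3.62-fold lower. The remaining called members were endoglucanases at more modest levels. Endoglucanase V (Mycth_76901) fell from 694 ± 17.4 to 167 ± 2.11 CPM, Mycth_109444 from 165 ± 5.67 to 35.4 ± 1.1 CPM, and Mycth_111372 from 718 ± 15 to 228 ± 8.53 CPM (SD, n = 3 for each). The Barwin-related endoglucanase (Mycth_2090891) fell from 735 ± 22.2 to 214 ± 4.5 CPM at 6 h, although at 4 h its level was 2061 CPM in ΔMttrc-1 and 478 CPM in MtWT. The same 7 cellulases were called under library totals.

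Beta-glucosidases moved less. Mycth_66804 fell from 24.4, 32 and 23.8 CPM in MtWT to 10.9, 12.4 and 12.8 in ΔMttrc-1, a log2 fold change of -1.15 that was -0.79 and no longer called under library totals. The abundant beta-glucosidase gene Mycth_115968 (gh1-1) stood at 1672, 1739 and 1582 CPM in MtWT and 888, 905 and 919 in ΔMttrc-1, a log2 fold change of -0.88 that stayed under the 2-fold limit but reached -1.03 with the length trend described below removed. The third gene, Mycth_2059579, was at 18.7 ± 1.61 CPM in MtWT and 30.6 ± 1.83 in ΔMttrc-1, a log2 fold change of 0.70 that was not called but reached 1.06, called higher, under library totals.

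Of 10 LPMO genes 7 fell (70%) and 1 rose (10%), against 12.9% and 8.55% of all tested genes. The LPMO genes had the lowest median of the 21 lists, a log2 fold change of -3.00. Their summed level dropped from 8548 ± 128 CPM in MtWT to 701 ± 5.36 in ΔMttrc-1 (SD, n = 3). LPMOs are copper enzymes that open crystalline cellulose, and the genes below carry the older family name GH61. GH61A (Mycth_112089) was at 3249, 3216 and 3135 CPM in MtWT and 182, 180.3 and 189.9 in ΔMttrc-1, 17.4-fold lower (log2 fold change -4.12, SE 0.059, edgeR adjusted p = 1.49e-26). GH61G (Mycth_110651) was at 2798, 2739 and 2812 CPM in MtWT and 271, 261 and 265 in ΔMttrc-1, 10.5-fold lower. Mycth_80312 had the deepest fold of the list, from 654, 588 and 591 CPM to 14.7, 15.9 and 17.9, 37.8-fold lower. GH61I (Mycth_111088) fell from 1565 ± 57.4 to 154 ± 6.34 CPM, GH61W (Mycth_100518) from 279.5 ± 3.89 to 18.4 ± 1.74 CPM, and GH61L (Mycth_103537) from 45.2 ± 3.27 to 7.16 ± 0.452 CPM. Mycth_92668 fell from 20.5 ± 2.71 to 4.06 ± 0.28 CPM. The member that rose, Mycth_2044732, was near the detection limit in both strains, with 29 counts in all over the MtWT libraries and 94 over the ΔMttrc-1 libraries, and its call was lost without the second ΔMttrc-1 library (log2 fold change 0.68), the first MtWT library (1.02) or the third (0.87).

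Cellobiose dehydrogenase, the flavin and heme enzyme that oxidizes cellobiose, followed the cellulases. Mycth_81925 was at 2471, 2826 and 2294 CPM in MtWT and 715, 729.8 and 746 in ΔMttrc-1, 3.47-fold lower. A second member of the family, Mycth_111388, was at 1696, 1614 and 1619 CPM in MtWT and 328, 329.7 and 329 in ΔMttrc-1, 5.0-fold lower. Genes described by a family 1 carbohydrate-binding module, the small domain that anchors fungal enzymes to cellulose, fell further. Mycth_112399 went from 463, 467 and 467 CPM to 25.5, 26.7 and 22.8, 18.6-fold lower, and Mycth_101354 from 43.4 ± 1.3 to 3.2 ± 0.694 CPM. Together 4 of the 6 genes of this list fell (66.7%) and none rose, against 12.9% and 8.55% of all tested genes. The list median was -2.06 on the log2 scale.

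The xylan and arabinan list was split, with 5 of 13 tested genes lower (38.5%) and 1 higher (7.69%), against 12.9% and 8.55% of all tested genes. Its median log2 fold change was -0.31 and turned to 0.05 under library totals, where 4 genes fell and 2 rose. The genes that fell included the abundant members, so the summed level dropped 7.1-fold, from 3991 ± 103 CPM to 562 ± 10.7 (SD, n = 3). The GH11 gene Mycth_100068, of a family of endoxylanases, was at 1451, 1497 and 1399 CPM in MtWT and 14.2, 16.3 and 15.3 in ΔMttrc-1. This 94.8-fold decrease (log2 fold change -6.57, SE 0.12, edgeR adjusted p = 7.75e-19) was deeper than that of any listed cellulase, although no test compared them. Acetylxylan esterase (Mycth_2066457), which removes acetyl groups from xylan, was at 798, 828 and 758 CPM in MtWT and 14.9, 14.9 and 15.2 in ΔMttrc-1, 52.9-fold lower. The xylanase Mycth_112050 had 1187, 1122 and 1150 CPM in MtWT and 60.4, 59.8 and 64.7 in ΔMttrc-1, 18.7-fold lower. A GH43 gene, Mycth_2072383, fell from 80.3 ± 7.84 to 13.8 ± 1.16 CPM, whereas another GH43 gene, Mycth_2064169, rose from 23 ± 1.75 to 59 ± 1.68 CPM. The xylanase Mycth_116553 fell from 309.8 ± 14.2 to 143 ± 1.53 CPM, a log2 fold change of -1.12 that was -0.76 under library totals and -0.95 with the length trend removed, both under the 2-fold limit. The tannase and feruloyl esterase gene Mycth_2112181 was at 90.3 ± 3.84 CPM in MtWT and 158 ± 4.27 in ΔMttrc-1, a log2 fold change of 0.81 that was called higher, at 1.17, under library totals. Among genes for pectin, xyloglucan and galactosides 2 of 8 fell (25%) and 1 rose (12.5%), against the same 12.9% and 8.55%. The list median log2 fold change was 0.36, and 3 rose under library totals. Oligoxyloglucanase (Mycth_116384) fell from 350.1, 342 and 335 CPM to 70.6, 72.9 and 73.4, and the pectin lyase-like gene Mycth_110806 from 16.7 ± 1.75 to 5.1 ± 0.665 CPM. The carbohydrate esterase family 12 gene Mycth_2019397 rose from 2.03 ± 0.158 to 5.19 ± 0.821 CPM.

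**Figure D2:**
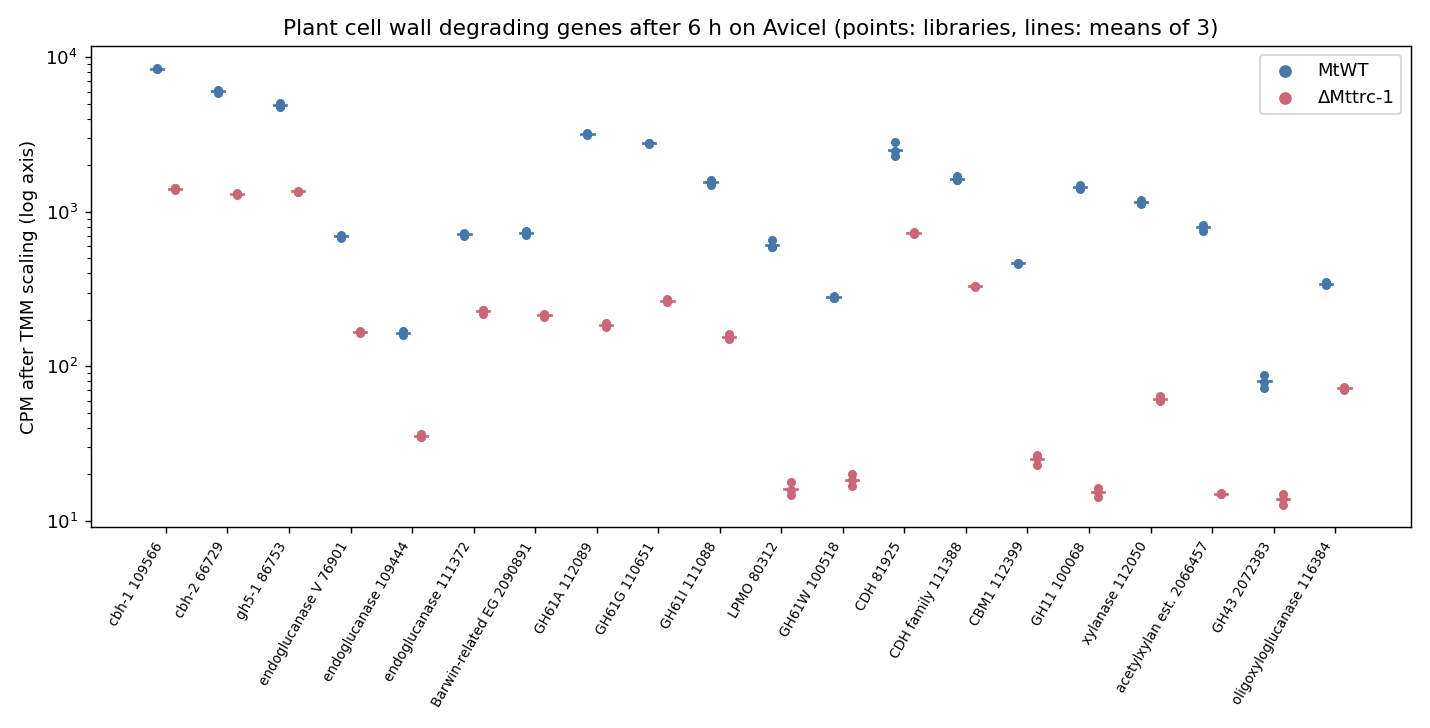
Levels of 20 genes for plant cell wall degrading enzymes after 6 h on Avicel, in CPM on a log axis, with one point per library and a line at the mean of 3 libraries, for MtWT in blue and ΔMttrc-1 in red. All 20 were called lower, the ΔMttrc-1 points lie below the MtWT points for each gene, and the gap is widest for the GH11 gene Mycth_100068 (1449 against 15.3 CPM).

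Genes acting on the fungus's own wall went both ways: 4 of 17 fell (23.5%) and 2 rose (11.8%), against 12.9% and 8.55% of all tested genes. The list median log2 fold change was 0.07, and 3 fell and 5 rose under library totals. The risen genes were abundant. Mixed-linked glucanase (Mycth_107178) rose from 1248, 1196 and 1207 CPM in MtWT to 2563, 2574 and 2567 in ΔMttrc-1, 2.11-fold, and a chitinase (Mycth_113450), which hydrolyses the chitin of the hyphal wall, rose from 366, 338 and 344 CPM to 752, 777 and 774, 2.2-fold. With the length trend removed their log2 fold changes were 0.90 and 0.85, under the 2-fold limit. A chitin-binding domain 3 gene (Mycth_103070) fell from 41.6 ± 2.28 to 4.64 ± 0.581 CPM and an alpha-mannanase (Mycth_2118124) from 8.31 ± 2.03 to 2.19 ± 0.0576 CPM. A GH16 gene (Mycth_2065851) was called lower on 23 counts in all over the MtWT libraries and 0 over the ΔMttrc-1 libraries. The starch list gave 2 decreases (40%) and 1 increase (20%) among 5 genes, against the same 12.9% and 8.55%. Under library totals it gave 1 decrease and 3 increases. Glucoamylase glaA (Mycth_72393), which releases glucose from starch ends, fell from 68.6, 69.4 and 67.2 CPM to 29.2, 27 and 26.1, a log2 fold change of -1.32 that was -0.96 and not called under library totals. A GH31 gene (Mycth_104674) fell from 18.6 ± 0.856 to 3.34 ± 0.581 CPM, and an alpha-glucosidase gene (Mycth_2303089) rose from 3.07 ± 0.563 to 7.69 ± 0.598 CPM.

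The UPR and ER genes were lower in ΔMttrc-1 by smaller factors. Of 10 genes 6 fell by more than 2-fold (60%) and none rose, against 12.9% and 8.55% of all tested genes. The 10 genes had a median log2 fold change of -1.12. Their summed level went from 9271 ± 182 CPM to 4132 ± 30.4 (SD, n = 3), and under library totals 2 of the 10 remained called. The chaperone gene grp78 (Mycth_2315513), the Hsp70 of the ER lumen, was at 2526, 2456 and 2528 CPM in MtWT and 937, 949 and 956 in ΔMttrc-1, 2.64-fold lower (log2 fold change -1.40, SE 0.043, edgeR adjusted p = 8.34e-20). Calnexin (cnx1, Mycth_2295005), a lectin chaperone for glycoproteins, was at 1668, 1634 and 1673 CPM in MtWT and 635, 626 and 629 in ΔMttrc-1, 2.63-fold lower. These are the genes called under both scalings. Protein disulfide isomerase (pdi1, Mycth_2296005) fell from 2126 ± 85.5 to 919.9 ± 7.6 CPM, and the ER chaperone gene lhs1 (Mycth_2312968) from 279 ± 14.1 to 121 ± 2.71 CPM. Among the genes for translocation into the ER, the Sec61 beta subunit (Mycth_2073127) fell from 335 ± 16.9 to 134 ± 8.83 CPM and sec62 (Mycth_2310016) from 290.2 ± 1.41 to 142 ± 2.86 CPM. These were at log2 fold changes of -0.85, -0.85, -0.97 and -0.67 under library totals. Mthac-1 (Mycth_2310995), the transcription factor of the UPR, was at 847, 852 and 898 CPM in MtWT and 529.8, 535 and 537 in ΔMttrc-1. Its log2 fold change of -0.70 (SE 0.043, edgeR adjusted p = 1.55e-13) did not reach the 2-fold limit at 6 h, whereas at 4 h it was -1.74, and the difference between the times was 1.05 (edgeR adjusted p = 9.84e-14). The members mpd1 (Mycth_2295433), the Sec61 subunit Mycth_2314691 and sec63 (Mycth_2303597) had log2 fold changes of -0.76, -0.90 and -0.64, also under the limit.

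**Figure D3:**
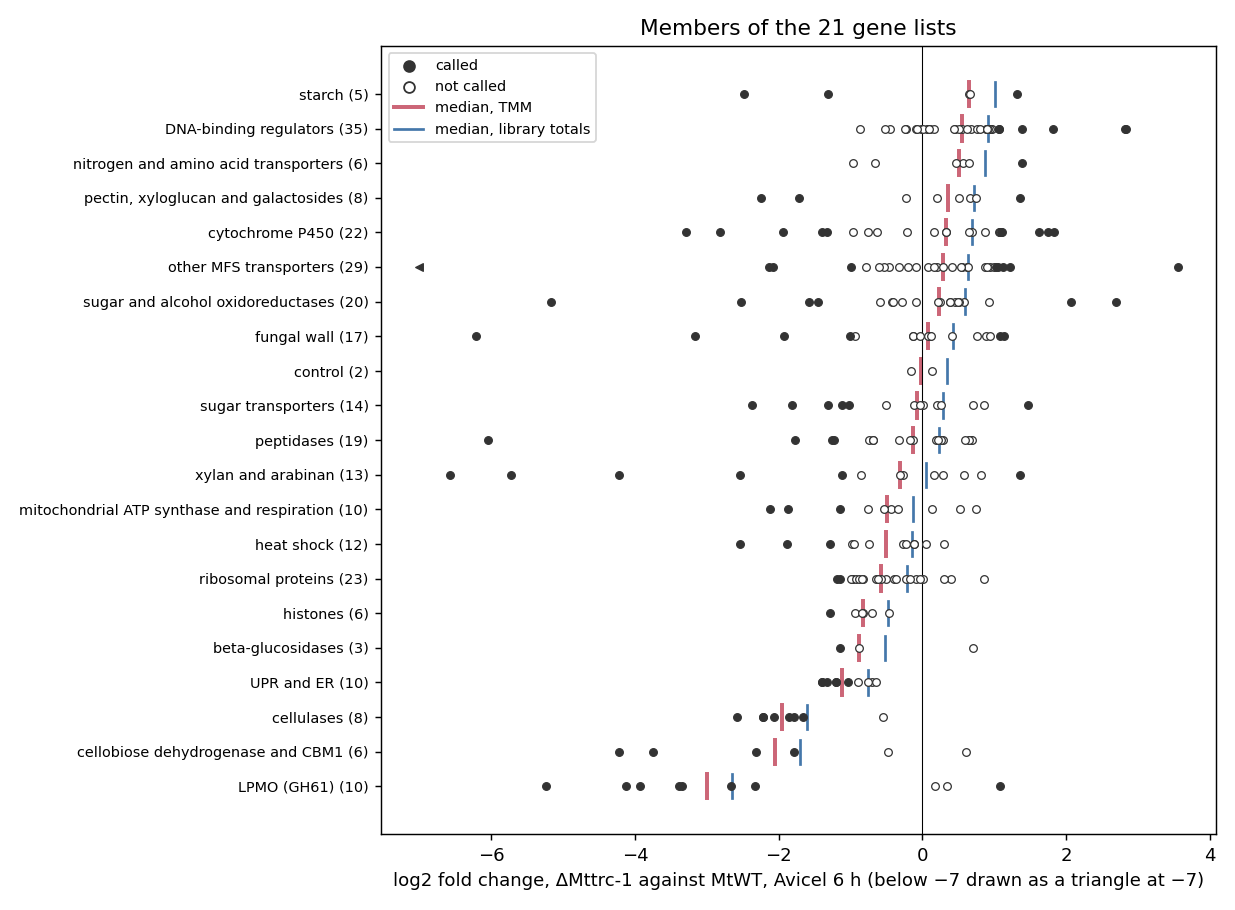
Each row is one of the 21 gene lists with its number of tested genes in brackets, and each circle a gene placed by its log2 fold change of ΔMttrc-1 against MtWT after 6 h on Avicel, filled where called. The red bar is the list median under TMM and the blue bar under library totals; the LPMO, cellobiose dehydrogenase and cellulase medians are the lowest under both, at -3.00, -2.06 and -1.96 under TMM.

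Short genes had lower fold changes at 6 h, which bears on the lists of small proteins. Gene length was taken from the ratio of the deposited counts to the deposited RPKM, and the median over tested genes was 1584 bases. The median log2 fold change was -0.55 in the shortest 20% of genes and rose through -0.15, 0.03 and 0.16 to 0.25 in the longest. In the shortest 20% 27.9% of genes fell and 7.99% rose, against 4.66% and 9.91% in the longest. At 4 h on Avicel the same medians ran from -0.11 to 0.11, and on starch from 0.07 to -0.08. Removing a smooth length trend from each library left 858 genes lower, 805 of them also lower before, and 842 higher, 612 of them also higher before. Why length and fold change moved together was not tested.

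**Figure D4:**
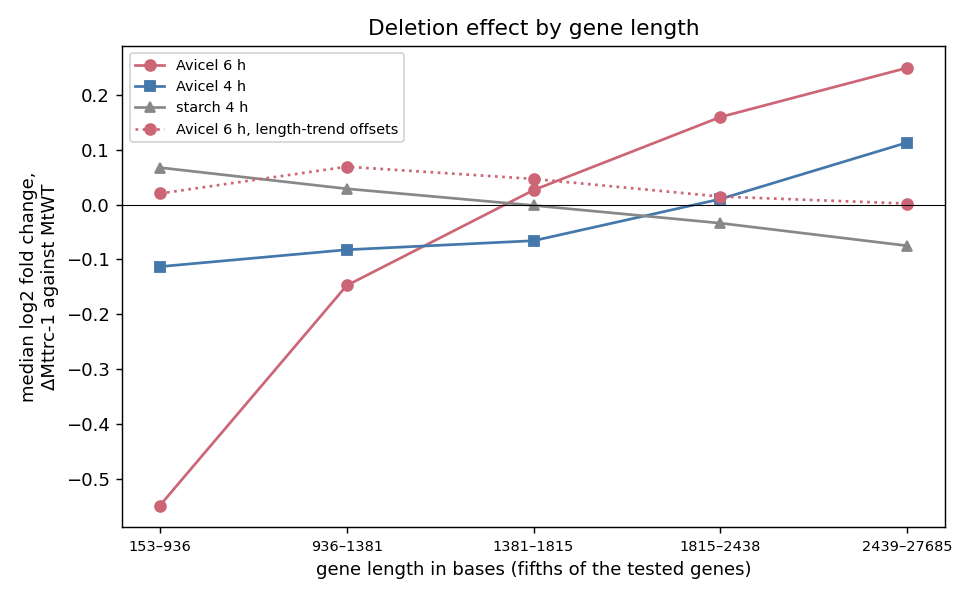
Median log2 fold change of ΔMttrc-1 against MtWT in 5 equal bins of the tested genes by length in bases, for Avicel 6 h (red), Avicel 4 h (blue) and starch 4 h (grey), with the 6 h values after length-trend offsets as a dotted line. The 6 h medians climb from -0.55 to 0.25, a wider span than at 4 h (-0.11 to 0.11) or on starch (0.07 to -0.08).

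The heat shock list gave 3 decreases (25%) and no increase among 12 genes, against 12.9% and 8.55% of all tested genes. Its median log2 fold change was -0.51, and 2 genes fell under library totals. Hsp20 (Mycth_110532), a small chaperone that holds unfolded proteins, was at 3643, 3674 and 3761 CPM in MtWT and 1003, 984 and 1002 in ΔMttrc-1, 3.71-fold lower, and its 4 h log2 fold change was 0.07. Hsp70 (Mycth_112686) was at 4989, 4794 and 5204 CPM in MtWT and 2063, 2047 and 2063 in ΔMttrc-1, a log2 fold change of -1.28 that was -0.92 under library totals. A DnaJ-type gene (Mycth_112086), of the family of co-chaperones of Hsp70, fell from 59.8 ± 1.13 to 10.3 ± 0.678 CPM.

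Genes for small housekeeping proteins had medians below 0 on the log2 scale, with few calls. Of 23 ribosomal protein genes 2 were called lower (8.7%) and none higher, against 12.9% and 8.55% of all tested genes. Their median log2 fold change was -0.57 and their median length 868 bases. The called genes were L34e (Mycth_116020), at 1666, 1819 and 1676 CPM in MtWT and 735, 757 and 781 in ΔMttrc-1, and S17e (Mycth_2039818), from 1636 ± 47.8 to 738 ± 7.85 CPM. Neither was called under library totals or with the length trend removed, where another member was called higher and the list median was -0.09. Histone H4 (Mycth_111405) fell from 2357 ± 112 to 965 ± 13.9 CPM. It was the single call among 6 histone genes of median length 754 bases, 16.7% against 12.9% of all tested genes that fell. The log2 fold change of histone H4 was -0.93 under library totals and -0.72 with the length trend removed. Of 10 genes for ATP synthase and respiration 3 fell (30%) and none rose, against the same 12.9% and 8.55%. Under library totals 2 fell and 1 rose. Subunit c of the ATP synthase F0 complex (Mycth_112204), which forms the proton-driven ring, was at 1264, 1325 and 1290.4 CPM in MtWT and 359.5, 349 and 355 in ΔMttrc-1, 3.65-fold lower, and stayed called under library totals and with the length trend removed. Cytochrome c oxidase subunit VIIa (Mycth_111770) fell from 720.2 ± 29 to 326 ± 5.91 CPM, but its log2 fold change was -0.79 under library totals and -0.53 with the length trend removed.

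Sugar transporter genes went both ways, with 5 of 14 lower (35.7%) and 1 higher (7.14%), against 12.9% and 8.55% of all tested genes. Their median log2 fold change was -0.07 and became 0.28 under library totals, where 2 fell and 3 rose. By far the most abundant, Mycth_114107, stood at 2466, 2389 and 2438 CPM in MtWT and 1695, 1715 and 1737 in ΔMttrc-1, a log2 fold change of -0.50 within the 2-fold limit, against -1.49 at 4 h. Mycth_114678 fell from 204 ± 2.29 to 101 ± 3.29 CPM and Mycth_2076976 from 118 ± 8.29 to 54.3 ± 0.272 CPM, at log2 fold changes of -0.66 and -0.76 under library totals. Mycth_104673 fell from 11.4 ± 1.6 to 2.19 ± 0.315 CPM and Mycth_108044 from 6.31 ± 0.899 to 1.79 ± 0.317 CPM, both calls that held under library totals. Mycth_2057386 rose from 1.88 ± 0.318 to 5.23 ± 0.929 CPM. Of 29 other major facilitator superfamily genes 4 fell (13.8%) and 5 rose (17.2%), against the same 12.9% and 8.55%, and 3 fell and 9 rose under library totals. Mycth_107763, described as a general substrate transporter of this superfamily, was nearly silent in ΔMttrc-1. It had 44.4, 43.2 and 48.4 CPM in the MtWT libraries, and 2396 counts over them against 1 count over the 3 ΔMttrc-1 libraries, a ratio of 3647 with an exact 95% counting interval from 654 to 144114. Its level at 4 h was 42.7 CPM in MtWT and 0.206 in ΔMttrc-1. Mycth_109499, with the same description, fell from 14.1 ± 1.52 to 3.34 ± 0.395 CPM, while Mycth_2109027 rose from 0.112 ± 0.052 to 1.39 ± 0.0233 CPM and Mycth_2030361 from 5.26 ± 0.403 to 12.3 ± 1.22 CPM. Among 6 transporters of nitrogen compounds and amino acids the ammonium transporter Mycth_105575 rose from 7.0, 8.33 and 8.1 CPM to 20.1, 19.2 and 21.8, and none fell (2 rose under library totals). This single increase was 16.7% of the list, against the same 8.55%.

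Cytochrome P450 genes, for heme monooxygenases, were split into 5 decreases (22.7%) and 6 increases (27.3%) among 22, around a list median of 0.33. All tested genes gave 12.9% and 8.55%, and under library totals 4 of the P450 genes fell and 10 rose. The most abundant one called, Mycth_2119688, rose from 283, 315 and 273 CPM to 629.8, 628 and 618, a log2 fold change of 1.11 that was 0.88 with the length trend removed. Mycth_2120753 rose from 4.07 ± 0.376 to 14.4 ± 1.42 CPM and Mycth_2120988 from 2.22 ± 0.226 to 6.82 ± 0.557 CPM, and at 4 h both were called lower in ΔMttrc-1, with log2 fold changes -1.38 and -1.79. Mycth_112815 fell from 40.1, 42 and 44.9 CPM to 6.0, 6.15 and 5.78, 7.08-fold, and Mycth_112051 from 20.03 ± 0.806 to 2.03 ± 0.421 CPM. Mycth_102965 fell from 22.3 ± 2.66 to 8.49 ± 1.1 CPM.

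Of the 35 DNA-binding regulators listed and tested none fell and 6 rose (17.1%), against 12.9% and 8.55% of all tested genes. The list median log2 fold change was 0.56, against 0.01 for all genes. Under library totals 16 were called higher and none lower, and with the length trend removed 8 were called higher. By adjusted p alone, with no fold limit, 21 were higher and 3 lower, against 74.3% of all genes past that threshold in either direction. The 6 genes are described as fungal transcriptional regulatory proteins or fungal specific transcription factors, and each stayed below 40 CPM. Mycth_102871 was at 2.37, 0.986 and 2.18 CPM in MtWT and 13.4, 12.1 and 13.5 in ΔMttrc-1, 7.05-fold higher (log2 fold change 2.82, SE 0.22, edgeR adjusted p = 2.33e-11), and its 4 h log2 fold change was 0.004. Mycth_2063030 rose from 11, 12 and 14.3 CPM to 33.7, 32.9 and 30.6, and Mycth_10175 from 3.8 ± 1.36 to 13.3 ± 1.32 CPM. Mycth_2070790 rose from 0.361 ± 0.123 to 2.59 ± 0.199 CPM. Mycth_2058263 rose from 17.4 ± 2.77 to 36.2 ± 1.64 CPM, and leaving out the first MtWT library brought its log2 fold change to 0.95. The sixth, Mycth_2108176, was at 0.574 ± 0.355 CPM in MtWT and 1.19 ± 0.109 in ΔMttrc-1, and its call was lost without the second MtWT library (log2 fold change 0.61) or the second ΔMttrc-1 library (0.98). A CP2 transcription factor gene (Mycth_2082522), chosen after its values were seen and outside the list, rose from 29.9, 35.3 and 28.7 CPM to 169, 171 and 169.

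Among oxidoreductases and related enzymes of sugars and alcohols 4 of 20 fell (20%) and 2 rose (10%), against 12.9% and 8.55% of all tested genes. With library totals 4 fell and 3 rose. Aldose 1-epimerase (Mycth_103702), which interconverts the anomers of sugars such as glucose, was at 1196, 1238 and 1166 CPM in MtWT and 202, 213 and 209.5 in ΔMttrc-1, 5.76-fold lower, with a 4 h log2 fold change of -0.35. A zinc-binding alcohol dehydrogenase gene (Mycth_114666) fell from 7.8 ± 0.0327 to 0.214 ± 0.135 CPM, and a xylose isomerase-like gene (Mycth_2057317) rose from 0.837 ± 0.363 to 5.54 ± 0.42 CPM. Outside the lists, and chosen after their values were seen, several abundant genes with a description fell. Phosphoketolase (Mycth_112227), which splits xylulose 5-phosphate, was at 2124, 2122 and 2056 CPM in MtWT and 199, 192 and 200.2 in ΔMttrc-1, 10.7-fold lower. Coproporphyrinogen III oxidase (Mycth_112612), an enzyme of heme synthesis, was at 1521, 1545 and 1527 CPM in MtWT and 322, 319.8 and 317 in ΔMttrc-1, 4.79-fold lower. A globin-like gene (Mycth_110640) fell from 697 ± 11.5 to 112 ± 2.87 CPM, and N,O-diacetylmuramidase (Mycth_107866), of the lysozyme type, from 837 ± 19.3 to 29.7 ± 2.85 CPM. Of the 19 peptidase genes 4 fell (21.1%) and none rose (2 and 3 under library totals), against the same 12.9% and 8.55%. All 4 were below 5 CPM in MtWT, among them the trypsin-like gene Mycth_2106471 (2.83 ± 0.419 to 0.0361 ± 0.0354 CPM).

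Ranked by the loss of CPM, the 10 genes at the head were Mycth_109566, Mycth_87219, Mycth_66729, Mycth_82772, Mycth_69746, Mycth_86753, Mycth_45669, Mycth_112322, Mycth_112089 and Mycth_112686. Besides the cellulases, GH61A and Hsp70 they include a globin gene. Globins bind heme, and Mycth_112322 was at 4019, 4030 and 3963 CPM in MtWT and 573, 577 and 599 in ΔMttrc-1, 6.87-fold lower (log2 fold change -2.78, SE 0.061, edgeR adjusted p = 7.61e-23). No description was at hand for Mycth_87219, whose libraries had 8189, 8434 and 8430.3 CPM in MtWT and 1493, 1499 and 1503 in ΔMttrc-1. These CPM were near those of cbh-1 in both strains, but take no account of gene length. Mycth_45669 had no description at hand either, at 4076 ± 291 CPM in MtWT and 627 ± 19.8 in ΔMttrc-1.

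Ranked by the gain, Mycth_2301985 led, from 845, 816 and 801 CPM in MtWT to 2359, 2366 and 2321 in ΔMttrc-1, and mixed-linked glucanase followed. An AMP-dependent synthetase and ligase gene (Mycth_2097501), of the family that activates acids such as acetate, rose from 527 ± 4.77 to 1277 ± 5.85 CPM. Mycth_2301791 rose from 133, 141 and 135 CPM to 1061, 1086 and 1088, 7.93-fold, with a 4 h log2 fold change of -0.12. Mycth_2294033 rose from 179 ± 3.53 to 937 ± 8.7 CPM and Mycth_2313641 from 245 ± 7.49 to 992 ± 5.79 CPM. The remaining 4 of the 10, Mycth_2301846, Mycth_55576, Mycth_2310947 and Mycth_61507, ended between 713 and 982 CPM in ΔMttrc-1. Across all calls, the median of the genes that rose in ΔMttrc-1 was 24.4 CPM, whereas the genes that fell had a median of 36.9 CPM in MtWT, close to 36.8 CPM for all tested genes.

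Ranked by fold change among called genes with at least 10 CPM in one strain and no overlap of libraries, the 12 deepest decreases included Mycth_107763 and the xylan genes Mycth_100068 and Mycth_2066457, and most of the others had no description at hand. Mycth_2309660 was at 68.9, 78.7 and 66.7 CPM in MtWT and 0.487, 0.0707 and 0.0781 in ΔMttrc-1. Mycth_2063631 was at 49.6, 67.7 and 57.5 CPM in MtWT and 0.15, 0.283 and 0.234 in ΔMttrc-1. The 3 ΔMttrc-1 libraries together held 17 and 18 counts of these 2 genes. Mycth_2296904 fell from 135 ± 14.5 to 1.92 ± 0.169 CPM and the NAD(P)-binding gene Mycth_106343 from 229 ± 7.13 to 4.72 ± 0.456 CPM. Mycth_2309542, Mycth_2303274, Mycth_94523 and Mycth_2307803 had log2 fold changes of -5.99, -5.55, -5.42 and -5.29. Mycth_2310279 was at 84.2 ± 0.917 CPM in MtWT and 1.68 ± 0.206 in ΔMttrc-1 at 6 h, but at 0 and 0.126 CPM at 4 h.

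Under the same limits the steepest increase was that of Mycth_2306087, from 6.67, 9.97 and 10.3 CPM in MtWT to 128, 138 and 138 in ΔMttrc-1, 15-fold. Mycth_55576 followed among the more abundant genes, at 83.3, 79 and 84.2 CPM in MtWT and 698, 722 and 719.9 in ΔMttrc-1. Mycth_2295346 rose from 23.1 ± 1.19 to 198 ± 5.65 CPM and Mycth_2301730 from 15.4 ± 1.49 to 138 ± 2.77 CPM. Mycth_2314252, Mycth_2311547, Mycth_2305433, Mycth_2294793, Mycth_2312740 and Mycth_2029812 rose to between 17.5 and 66.2 CPM from below 10 CPM. With Mycth_2301791 and the regulator Mycth_102871 these make up the 12 steepest increases within those limits.

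Neighbouring genes, in the order of the RefSeq assembly, were called together in 15 series of at least 4 tested genes, 11 of them lower and 4 higher in ΔMttrc-1, and the 5 longest are described here. Neighbours can overlap. The study describes counting only reads unique to a single gene, but the handling of strand is not given in the sources used here. In one series 5 genes fell: Mycth_82782, Mycth_11658 (a transferase), Mycth_108317 (with a phosphopantetheine attachment site, a carrier domain of fatty acid, polyketide and peptide synthases), Mycth_69746 and Mycth_82772. Mycth_82772 was at 4727, 4994 and 4716 CPM in MtWT and 699.9, 679.8 and 694 in ΔMttrc-1, 6.96-fold lower. Mycth_69746 was at 4032, 4075 and 4101 CPM in MtWT and 507, 484 and 498 in ΔMttrc-1, 8.2-fold lower. Both were among the 10 largest losses of all genes. Mycth_11658 fell from 1689 ± 57.4 to 227 ± 5.65 CPM, Mycth_108317 from 1889 ± 65.5 to 227 ± 7.18 CPM, and Mycth_82782 from 3454 ± 126 to 1672 ± 22.9 CPM, a log2 fold change that was -0.69 under library totals. At 4 h the same 5 genes were called higher in ΔMttrc-1, as were 5.83% of all tested genes. Mycth_82772 then had 11794 CPM in ΔMttrc-1 and 449 in MtWT, and Mycth_108317 had 12865 and 1124 CPM.

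In another series Mycth_2130517, Mycth_2071285, Mycth_2071504, Mycth_2071514 and Mycth_2071953 fell, the last 4 of them described as hypothetical proteins. Mycth_2071514 was at 1997, 1827 and 1984 CPM in MtWT and 88.9, 91.9 and 82.4 in ΔMttrc-1, 22.1-fold lower, and Mycth_2071953 fell from 1876 ± 174 to 79 ± 2.83 CPM. At 4 h Mycth_2071514 had 5166 CPM in ΔMttrc-1 and 2289 in MtWT, and 4 of the 5 genes were called higher there. On starch it had 148 CPM in MtWT and 239 in ΔMttrc-1.

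**Figure D5:**
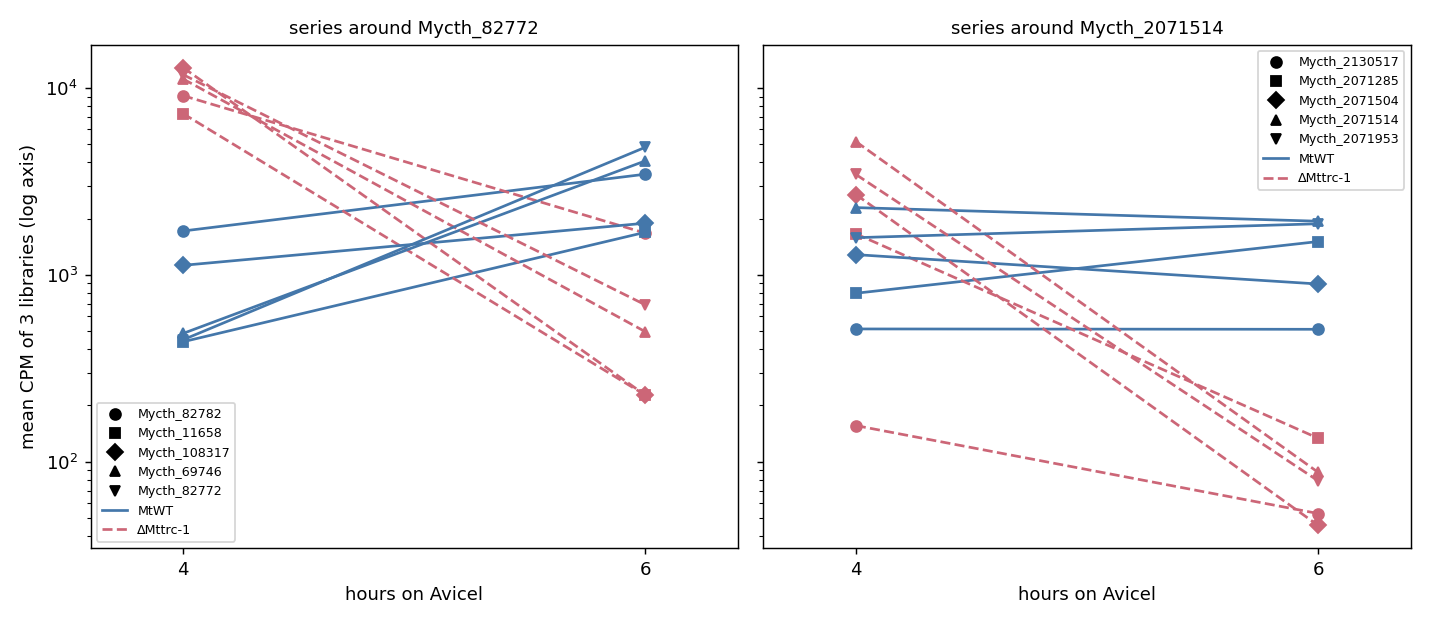
Mean CPM of 3 libraries (log axis) after 4 h and 6 h on Avicel for 2 series of 5 neighbouring genes, with MtWT as solid blue lines and ΔMttrc-1 as dashed red lines, and one marker shape per gene. In the series of Mycth_82772 the red lines start above the blue ones and end below them (11794 and 449 CPM at 4 h, 691 and 4812 CPM at 6 h), and the same crossing holds for Mycth_2071514 (5166 and 2289, then 87.7 and 1936 CPM).

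The longest series, of 6 genes, was at low levels in both strains by 6 h. It comprised Mycth_115957 (a 2OG-Fe(II) oxygenase), Mycth_2303701, Mycth_2303702, Mycth_2138881, Mycth_2303707 and Mycth_81364. In MtWT these genes had between 0.489 and 11 CPM at 6 h, and in ΔMttrc-1 between 0.0721 and 1.64 CPM. At 4 h Mycth_115957 had 2883 CPM in MtWT and 8.27 in ΔMttrc-1, and Mycth_81364 had 1169 and 34.9 CPM, and all 6 were called lower there, as were 7.42% of all tested genes. A series of 5 genes rose: Mycth_49393, Mycth_2110651 (an alcohol dehydrogenase), Mycth_2060065 (a P450), Mycth_2110653 (berberine-like) and Mycth_2061987 (a P450), all at or below 4.4 CPM in ΔMttrc-1. A further 5 neighbours, Mycth_2112712 (with a TPP-binding site), Mycth_2310137, Mycth_2310138, Mycth_2310143 and Mycth_2310145, also rose. Mycth_2310145 was at 66.2, 65.9 and 65.7 CPM in MtWT and 214, 221 and 222 in ΔMttrc-1, 3.32-fold higher, and Mycth_2310138 rose from 5.51 ± 0.178 to 29.6 ± 1.65 CPM. The calls of Mycth_2060065 and Mycth_2310143 were lost when the third MtWT library was left out, at log2 fold changes of 0.95 and 0.99, and that of Mycth_2310143 also without the first ΔMttrc-1 library (0.99).

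The later effect differed from the earlier one for many genes. The difference of the deletion effects, 6 h minus 4 h, was called for 1922 of 8573 genes (22.4%), of which 1017 (11.9%) had the lower effect at 6 h and 905 (10.6%) the higher. Replicates differed more at 4 h, while the fit shared its estimate of the spread over all groups. A chi-square per gene between pairs of replicates was 16.1 to 43.3 in MtWT and 6.98 to 18.1 in ΔMttrc-1 at 4 h. At 6 h it was 2.62 to 6.77 and 2.38 to 2.64. Of the 1110 genes that fell at 6 h, 568 had an effect called lower than at 4 h and 26 an effect called higher. Of the 733 that rose at 6 h, 428 had an effect called higher than at 4 h and 9 one called lower. Both sets were picked by the 6 h effect, which is itself a term of the difference. The lean of these 2 splits is therefore partly set by that choice. Among the xylan genes 6 of 13 were called lower at 6 h than at 4 h and none higher. For Mycth_100068 the log2 fold change was -1.95 at 4 h and -6.57 at 6 h, a difference of -4.61 (SE 0.14, edgeR adjusted p = 3.41e-15). GH61A and GH61G had differences of -1.76 and -1.90 (Mycth_112089, Mycth_110651), and 5 of the 10 LPMO genes were called lower at 6 h than at 4 h and 1 higher. The one called higher was GH61M (Mycth_2063480), by 1.10. For the most abundant cellulases the difference was not called: cbh-1 (Mycth_109566) stood at -1.98 on the log2 scale at 4 h and -2.58 at 6 h, and the difference of -0.60 was within the 2-fold limit, as it was for cbh-2 (Mycth_66729, -0.92) and gh5-1 (Mycth_86753, -0.44). None of the 10 UPR and ER genes was called lower at 6 h than at 4 h, and Mthac-1 was called higher. On starch, the deletion effect on cbh-1 was -0.49, on GH61A -2.31 and on grp78 (Mycth_2315513) 0.42. GH61A was low there, at 4.58 CPM in MtWT and 0.928 in ΔMttrc-1, while cbh-1 had 65.2 and 46.3 CPM.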

How the data were processed

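RNA-seq counts and RPKM values for 9109 genes were deposited as one table; all its sample columns matched a sample (0 did not). Per the labels the authors mapped reads with TopHat2 (2.0.8b) and counted reads per gene with HTSeq (0.5.4p2), and the deposited RPKM values rescale these counts by gene length and depth. The genome build, the strand setting and how shared reads were handled are not stated in those sources, so overlapping genes and near-identical copies are uncertain. No authors' fold changes or p-values were used.

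The count test was that of edgeR 4.0.16 in R 4.3.3 (quasi-likelihood test, robust, TMM factors, all 18 libraries in 6 groups, filterByExpr by group). A gene was called at a Benjamini-Hochberg adjusted p below 0.05 and an absolute log2 fold change above 1. The filter left 8573 genes and removed 536, which held 0.00529% of counts. In a simulation of this comparison on 8539 genes, 200 of them changed, the test called 23 of 50 genes changed 2-fold, 48 of 50 changed 4-fold, 50 of 50 changed 8-fold, 0 of 50 changed 1.5-fold, and 0 unchanged genes. It set all other genes equal between the strains and changed the 200 evenly in both directions. Its 0 false calls therefore cannot measure errors that come from the scaling. A call also needs an estimated change above 2-fold. That limit largely sets the results for genes changed 1.5-fold or 2-fold and for unchanged genes. Only the counting error enters the interval given for a ratio of counts. WT replicates 2 and 3 were told apart by title, since their description labels carry one name.

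Named genes were those of 21 lists (297 genes, descriptions from the study), the 12 most decreased and increased called genes with at least 10 CPM in the higher group and no overlap of libraries, the 10 largest losses and gains of CPM, the members of the 5 longest series of at least 4 tested neighbours called one way, and genes with at most 3 counts in one group and at least 10 CPM in the other. Neighbours came from RefSeq locus order (9086 of 9109 genes matched). Lists and members were chosen with earlier results of these data known. Alternatives were library totals, RLE and upper-quartile factors, DESeq2 1.42.0, no filter, glmTreat, the 6 libraries alone, a replicate block, limma 3.58.1 on log2(RPKM + 1), leaving out each library, and length-trend offsets.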

Additional observations from a re-analysis of the deposited data

Results flagged for a closer look

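The deletion effect differed between 6 h and 4 h on Avicel, by a test of the difference itself in the edgeR fit, for 1922 of 8573 genes. In all, 79 genes were called lower in ΔMttrc-1 at 6 h and higher at 4 h, and 32 were called the other way round. Of the 150 genes whose values are given in the text, 90 had a called difference between the times and 18 of these were called in opposite directions at the 2 times, in libraries that the comparisons do not share. Over all tested genes the difference was called for 22.4%. Many of the 150 were named for their 6 h values or with earlier results known, so their counts describe only the genes named.

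The 5 neighbouring genes around Mycth_108317 all turned from higher to lower, with differences (6 h minus 4 h, log2) of -3.45 for Mycth_82782, -6.95 for Mycth_11658, -6.57 for Mycth_108317, -7.56 for Mycth_69746 and -7.52 for Mycth_82772. In another series of neighbours the turn was -4.55 for Mycth_2071285, -5.36 for Mycth_2071504, -5.64 for Mycth_2071514 and -5.69 for Mycth_2071953. Among the genes called in opposite directions whose values are given, the largest turn was -10.09 for Mycth_2310279, which has no description at hand and stood at 0 CPM in MtWT and 0.126 in ΔMttrc-1 at 4 h, so that this value depends on the prior count of the fit. The Barwin-related endoglucanase Mycth_2090891 (-3.89) was the one listed cellulase that turned, and the globin gene Mycth_112322 turned by -3.78.

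The P450 gene Mycth_2114617 also turned to lower, by -7.38, though it stood at 0.822 ± 0.384 CPM in MtWT and 0.21 ± 0.114 in ΔMttrc-1 at 6 h, and at 0 and 0.266 CPM at 4 h. The P450 genes Mycth_2120988 (3.42), Mycth_2120753 (3.20) and Mycth_2060065 (2.46) turned to higher. Mycth_2295346 (4.81) and Mycth_2294033 (3.62) did so as well.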

How the results depend on the processing

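The medians of the cellulase, LPMO, cellobiose dehydrogenase and UPR lists stayed below 0 under library totals, RLE and upper-quartile factors and length-trend offsets, and leaving out each library in turn gave 1819 to 1851 calls. The split of calls depended on the scaling. Library totals gave 704 lower and 1544 higher (31.3% lower), limma on log2(RPKM + 1) gave 557 lower and 1181 higher (32%), upper-quartile factors 54.3% lower, and length-trend offsets, chosen after seeing the data, 50.5% lower. Library totals also gave 1635 genes whose effect was higher at 6 h than at 4 h. Testing against a fold of 2 (glmTreat) gave 1183 calls, 397 of them higher. The stricter test calls fewer genes by construction. The limma run changed the test and the unit as well as the scaling, and what moved each split of calls was not tested.

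Lists whose count of calls moved by over 1.5 times were the following. Under library totals the count was 5 for pectin genes, 2 for UPR and ER genes, 2 for nitrogen transporters, 16 for regulators, 1 for ribosomal proteins and 0 for histones. Under limma on RPKM it was 0 for beta-glucosidases, 2 for UPR and ER, 5 for P450, 13 for regulators, 1 for ribosomal proteins, 1 for peptidases and 0 for histones. Under glmTreat it was 0 for beta-glucosidases, 3 for sugar transporters, 4 for other MFS genes, 5 for P450 and 1 for peptidases. With length-trend offsets it was 2 for beta-glucosidases, 2 for nitrogen transporters, 1 for ribosomal proteins and 0 for histones. Nitrogen transporters had 2 without the filter on low counts and 1 to 2 when a library was left out. The cause was not tested in these cases. Actin (Mycth_2314852) turned to 0.20 under library totals and under limma.

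The titles number the replicates but do not say whether equal numbers pair the strains. Same-numbered libraries deviated together with weak correlations of 0.046, 0.028 and 0.021. Each library correlated best with its own number, a hint from the data only, and the replicate block gave 1842 calls (1108 lower, 734 higher).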
